A study of Equus caballus with 4 samples.

Results

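Latherin and 3 genes of gland secretion and transport were followed across sarcoids and skin of the horse: LATH, SLC5A1, CA6 and CA12. They were found as every non-control probe whose RefSeq transcript belongs to one of these genes in the horse RefSeq gene table, which gave 4 genes of 1031 named on the array and 15 probes of 43603. The genes were chosen by their sarcoid to skin ratios on these same arrays, so those ratios are given as a description, with no test. An equine sarcoid is a locally invasive fibroblastic tumour of horse skin. Each of 4 horses (horse 1 to horse 4 in the labels) gave 1 array, on which RNA of its sarcoid was labelled with Cy3 and RNA of its own skin, taken away from the tumour, with Cy5. The labels read here give each animal only a number, and they do not say which skin layers the pieces held. Their descriptions call the arrays biological replicates, and both pieces were kept frozen in RNAlater before total RNA was extracted.

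Horses sweat from glands of the apocrine type that open beside the hair, and they are driven mainly by adrenaline. Horse sweat is rich in protein and foams, because latherin, the product of LATH and a member of the BPI fold family, is a surfactant that lets the sweat wet and spread through the coat. Secretory cells of glands also take up sugar and move ions and bicarbonate. SLC5A1 is the sodium-glucose cotransporter SGLT1, CA6 the carbonic anhydrase secreted into fluids such as saliva, and CA12 a carbonic anhydrase anchored in the plasma membrane. Both enzymes interconvert carbon dioxide and bicarbonate.

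LATH, SLC5A1 and CA6 were lower in the sarcoid than in the skin of the same animal in each of the 4 horses, and CA12 lay near 0 on the log2 scale. The mean log2 ratio of sarcoid over skin was -6.33 ± 0.26 (SD, n = 4) for LATH, which is an 80.4-fold difference. It was -4.06 ± 0.16 for SLC5A1, or 16.7-fold, and -3.53 ± 0.36 for CA6, or 11.6-fold. For CA12 it was 0.06 ± 0.19. Among 19603 targets, ordered from the most negative ratio, LATH was at place 10, SLC5A1 at 114, CA6 at 187 and CA12 at 11182. Most targets have no gene name, and some are single probes, so a transcript may hold several places. Among the 845 targets with a name the places were 2, 12, 15 and 523. In bulk tissue, fewer gland cells in a piece and less RNA per gland cell cannot be told apart. No array had the dyes swapped (0 of 4), so a dye effect of a probe cannot be told apart from the tissue difference.

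**Figure D1:**
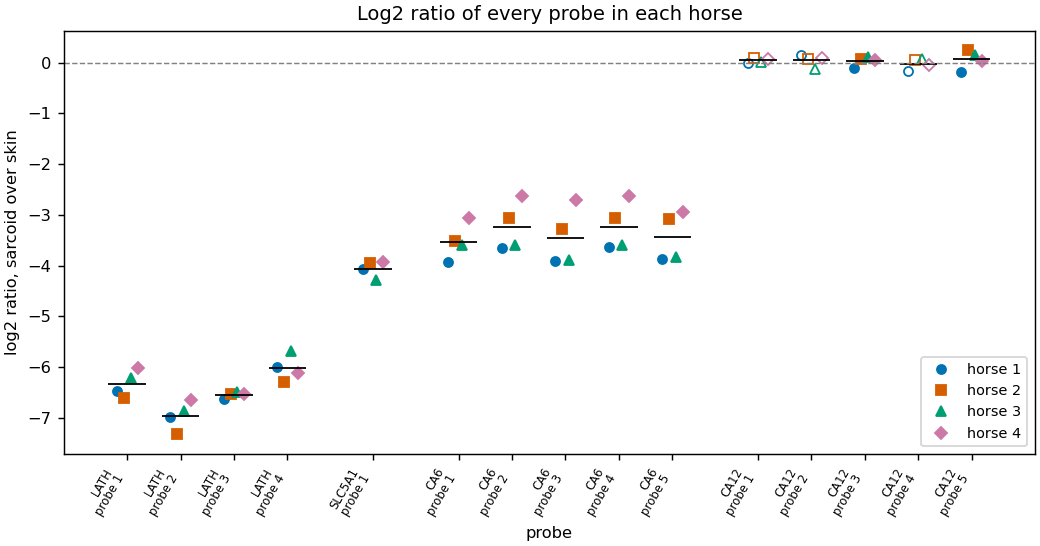
Log2 ratio of sarcoid over skin (vertical axis) for each of the 15 probes of the 4 genes (horizontal axis); each point is 1 horse, the bar is the mean of 4 horses, and open symbols mark probes that did not pass the filter on dim probes. All 16 LATH values lie between -7.33 and -5.69, all 20 CA6 values between -3.94 and -2.63, and the CA12 values on both sides of 0.

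Of the 4 LATH probes, the brightest one stands for the gene. Its net signal, the median of the spot minus the median of its local background in scanner units, was 438961, 514362, 417244 and 476614 in the skin of horses 1 to 4. In the sarcoids of the same horses it was 3546, 2343, 2620 and 3036. The lowest skin value was thus far above the highest sarcoid value, and latherin was still well above background in every sarcoid. Over all 4 probes and 4 horses the sarcoid net signal was between 0.283% and 1.14% of the skin net signal on the same spot. Net signals are not normalized between the dyes, so these shares differ from the normalized ratios. No non-control spot of any array was marked as saturated (0 spots), although the LATH spots are very bright in skin.

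The latherin ratios differed more between probes than between horses. Probe 1 gave log2 ratios of -6.47, -6.61, -6.21 and -6.02 in horses 1 to 4. Probe 2 gave the lowest ratio of the 4 probes in every horse, with a mean of -6.96 ± 0.28 (SD, n = 4) and -7.33 in horse 2. Probe 4 had the smallest mean difference, -6.03 ± 0.26. Probe 3 was nearly constant, at -6.55 ± 0.06. The SD between horses averaged 0.21 over the probes and the SD between probes averaged 0.42 over the horses, so the choice of probe moved the latherin value more than the choice of animal did. The probes report on 1 transcript and are not replicates of the tissue comparison.

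The scanner software marked the local Cy5 background of LATH as an outlier of its population on 16 of 16 spots, against 2 of 60 for the other 3 genes. That local background was between 54 and 63 scanner units around LATH and between 38 and 53 around the others. At most 3.42% of the non-control spots of an array carried this mark. It was not among the marks used to leave out spots, and the lowest skin net signal of any LATH probe was 328525 units.

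SLC5A1 had 1 probe. Its net signal was 2926, 2256, 2505 and 3566 in the skin of horses 1 to 4 and 177, 74, 92 and 82 in their sarcoids. Horse 1 had the highest sarcoid value, and the groups did not overlap. The log2 ratios were -4.07, -3.96, -4.28 and -3.93. After normalization the log2 level varied between horses with an SD of 0.40 in skin and 0.42 in sarcoid, while the SD of the within-horse ratio was 0.16. Horse 1 had the highest normalized log2 level of SLC5A1 in both tissues, 11.72 in skin and 7.65 in sarcoid.

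CA6 was read by 5 probes, all of which passed the filter on dim probes. For the brightest of them the net signal was 2041, 1702, 2292 and 1760 in the skin of horses 1 to 4 and 135, 78, 139 and 74 in the sarcoids. Its log2 ratios were -3.94, -3.52, -3.59 and -3.07. Here the normalized ratios differed more between animals than between probes: the SD between horses averaged 0.48 and the SD between probes 0.17. After normalization every one of the 5 probes showed the largest difference in horse 1 and the smallest in horse 4. The medians over probes in horses 1 to 4 were -3.87, -3.09, -3.60 and -2.70. Unnormalized net signals gave another order. For the brightest probe the sarcoid signal was 6.61%, 4.58%, 6.06% and 4.18% of the skin signal in horses 1 to 4. By these shares the difference was smallest in horse 1 and largest in horse 4, so the order of the animals depends on normalization between the dyes. The net signals of GAPDH also shifted between arrays. They were 31264 in sarcoid and 31570 in skin of horse 1, and 24734 and 75648 in horse 4. The part of the dye balance in the order of the CA6 shares was not tested. In the skin the normalized log2 level of the brightest probe was 11.19, 10.37, 10.90 and 10.27, and in the sarcoids it was 7.25, 6.85, 7.31 and 7.20. Its SD was 0.44 in skin and 0.20 in sarcoid. Probes 2 and 4 of CA6 differed from each other by at most 0.02 in any horse, while every other pair of its probes differed by 0.25 or more in some horse; probe sequences were not used here, so whether those probes overlap is not known.

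CA12 was close to the limit of detection in both tissues. Of its 5 probes, 2 passed the filter on dim probes, which asks for a signal well above background on at least 3 of the 4 arrays in 1 channel. The brighter of the 2 had a net signal of 34, 31, 27 and 36 in the skin of horses 1 to 4 and 64, 70, 69 and 55 in their sarcoids, and it was well above background in 3 of 4 arrays of each channel. The unequal raw signals of the channels came with log2 ratios of -0.19, 0.24, 0.16 and 0.04 after normalization. Over all 5 probes the 20 ratios lay between -0.19 and 0.24, and 6 of them were below 0. Probe 1 of CA12 was spotted 5 times on each array and was not well above background in any; the log2 ratios of its spots had an SD between 0.04 and 0.13 within an array. For comparison, 50 probes were spotted 5 times, and their median SD between spots was 0.07 to 0.09 on the log2 scale.

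Negative control spots give the signal to be expected with no target. Their net signal had a 95th percentile of 45.5 to 52.0 units in the sarcoid channel and 13.6 to 20.0 in the skin channel. The CA12 spots lay above that percentile in 35 of 35 cases in the sarcoid channel and in 34 of 35 in the skin channel, but by little: the highest CA12 spot was at 70.0 units in the sarcoid channel and at 42.0 in the skin channel. A small ratio between signals so near the floor does not show that the CA12 transcript is equal in both tissues. SLC5A1 in the sarcoids was 1.61 to 3.58 times the 95th percentile of the negative controls on its array. The lowest CA6 probe was at 1.47 to 2.17 times that percentile, whereas the lowest LATH probe was at 29.9 to 49.9 times. The sarcoid levels of SLC5A1 and CA6 are thus much closer to the floor than that of latherin, and the sizes of their ratios moved with some, though not all, of the ways of treating the background.

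**Figure D2:**
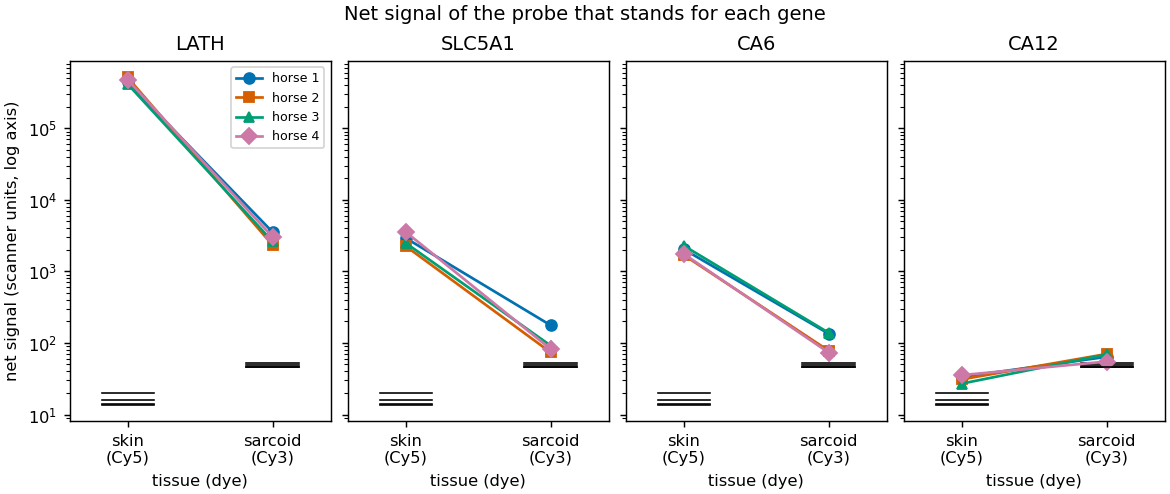
Net signal (scanner units, log axis) of the probe that stands for each gene in skin (Cy5) and sarcoid (Cy3); each line joins the 2 tissues of 1 horse, and short black bars mark the 95th percentile of the negative controls of each array and channel. LATH falls from 417244 units or more to between 2343 and 3546, SLC5A1 and CA6 fall to 74 to 177 units, and CA12 stays between 27 and 70.

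With no background correction SLC5A1 was at -3.97 and CA6 at -3.48, close to the reported values. The reported values leave out spots marked as outliers before the background model is fitted. With the background model fitted on all spots, the log2 ratio was -2.62 for SLC5A1 and -2.16 for CA6, that is 6.15-fold and 4.47-fold. With the signals that the scanner software had already corrected, it was -5.02 and -4.43, that is 32.4-fold and 21.6-fold. LATH ranged only from -6.99 to -6.01 over the 15 other ways of processing, and CA12 from -0.03 to 0.31 over 14. LATH, SLC5A1 and CA6 were below 0 in all of these.

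**Figure D3:**
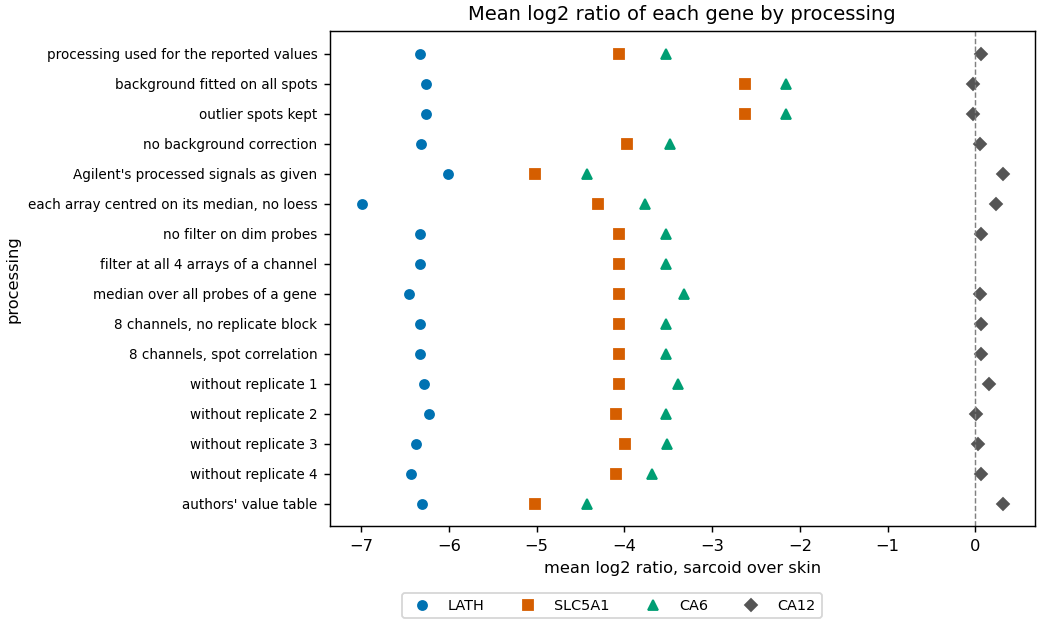
Mean log2 ratio of sarcoid over skin (horizontal axis) of the 4 genes under each way of processing (vertical axis, with the reported values on top). LATH keeps between -6.99 and -6.01, SLC5A1 and CA6 shift to -2.62 and -2.16 when the background is fitted on all spots, and CA12 stays between -0.03 and 0.31.

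Genes that work beside these 4 in glands were taken from 6 lists: sweat and apocrine gland genes, the BPI fold family, carbonic anhydrases, sugar transporters, ion and water transport, and receptors and signalling that drive sweating. Without the 4 genes above, 15 members could be measured by name. Of these 8 were lower in the sarcoids, 0 were higher and 7 did not pass (limma, Benjamini-Hochberg adjusted p under 0.05 over all 19603 targets), and their median log2 ratio was -0.99. Over all targets 9.90% were called lower and 5.85% higher, with a median log2 ratio of 0. Among targets with a name, LOC identifiers included, 12.7% were called lower and 7.69% higher. The lists were written with earlier results of these arrays known, so the count is a description of these genes.

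The background model bears on these calls too. With it fitted on all spots, 1 of the 8 still passed, and the other 7 had a limma adjusted p between 0.0746 and 0.327. In that setting 147 targets were called lower and 93 higher, against 1941 and 1146 in the processing used. Leaving out 1 animal left 1077 lower and 390 higher without horse 1, 1174 and 592 without horse 2, and 1255 and 671 without horse 3. Of all calls 37.1% were on the higher side, against 48.2% with the scanner software's own signals and 18.6% with arrays centred on their median.

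In the sweat and apocrine gland list 4 of 36 genes were measured: LATH, CA6, CA12 and LTF. LTF, which encodes lactoferrin, an iron-binding protein of secretions and of neutrophil granules, had a net signal of 995, 352, 324 and 38217 in the skin of horses 1 to 4. In the sarcoids it was at 173, 65, 86 and 1682. Horse 4 was highest in both tissues by a wide margin, and its sarcoid exceeded the skin of the other 3 animals, so the groups overlapped while every pair differed in the same direction. LTF fell by 2.36 ± 0.79 on the log2 scale (SD, n = 4, limma adjusted p = 0.00848). With the background model fitted on all spots the ratio of LTF was -1.61 and the call was lost (limma adjusted p = 0.305). Treating the channels as 8 separate samples, its limma adjusted p was 0.386 with no replicate block and 0.178 with the spot correlation as the block. Of 13 BPI fold family genes only BPIFA2 was measured beside LATH. BPIFA2, a secreted protein of salivary glands, was at -0.46 ± 0.34 and did not pass (limma adjusted p = 0.131); its skin net signal was 64, 63, 75 and 299 in horses 1 to 4, again highest in horse 4.

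The carbonic anhydrase list had 2 of 15 genes measured, CA6 and CA12. CA3 was on the array but did not pass the filter on dim probes.

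Of 20 sugar transporters 5 were measured. Beside SLC5A1, SLC2A5 and SLC2A1 were lower, and SLC2A4 and SLC5A3 did not pass. SLC2A5, the fructose transporter GLUT5, had skin net signals of 621, 1058, 866 and 1430 and sarcoid net signals of 92, 69, 70 and 71. The normalized levels of the groups did not overlap, and the log2 ratio was -2.99 ± 0.18 (SD, n = 4, limma adjusted p = 0.000266). With the background model fitted on all spots it was -1.73 and the call was lost (limma adjusted p = 0.216). SLC2A1, the widely expressed glucose transporter GLUT1, fell by 0.90 ± 0.28 on the log2 scale (limma adjusted p = 0.0168), with skin net signals of 110, 134, 174 and 78. This call was lost without horse 1 (limma adjusted p = 0.076) and without horse 2 (0.0623). Its size was -0.42 with the background model fitted on all spots (limma adjusted p = 0.324) and -2.35 with the scanner software's own corrected signals. The other probe of SLC2A1 was at -0.21. SLC2A4, the insulin-responsive GLUT4, was at -0.14 ± 0.28, and SLC5A3, a sodium-coupled carrier of myo-inositol in the same family as SLC5A1, was at -0.01 ± 0.08. SLC5A3 was well above background in every sample.

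For ion and water transport 5 of 44 listed genes were measured, of which 2 were lower and 3 did not pass. CFTR, the chloride channel of secretory epithelia, had skin net signals of 1470, 1014, 1253 and 1332 and sarcoid net signals of 220, 200, 136 and 119. Its log2 ratio was -2.32 ± 0.61 (SD, n = 4, limma adjusted p = 0.00466). With the background model fitted on all spots it was -1.50 and the call was lost (limma adjusted p = 0.22). The normalized levels of CFTR in sarcoid and skin did not overlap. SLC4A2, an anion exchanger of chloride and bicarbonate, was bright in both tissues and stood at 0.06 ± 0.29 (limma adjusted p = 0.841), but at -0.45 with arrays centred on their median without loess. CLCA1, a secreted protein of mucous epithelia that modulates chloride conductance, gave log2 ratios of -4.27, -0.16, -2.65 and 0.08. Its skin net signal was 1469 in horse 1 and 38 in horse 2, so the animals differed strongly, and it did not pass (limma adjusted p = 0.202).

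Among 29 receptors and signalling genes 4 were measured, of which 3 were lower and 1 did not pass. CALCB, a calcitonin gene-related peptide of sensory nerves, had skin net signals of 4480, 27918, 4918 and 14142. In the sarcoids it was at 192, 652, 191 and 290, highest in the same horse 2. Its log2 ratio was steady over the horses at -4.38 ± 0.15 (limma adjusted p = 0.000103). With the background model fitted on all spots the ratio of CALCB was -3.57 and the call was lost (limma adjusted p = 0.0746). CALCA, the related gene that encodes calcitonin and a sister peptide, was not well above background in any sarcoid. By the lowest signal that was well above background, it was at least 1.82-fold lower in the processing used (limma adjusted p = 0.0332). With the background model fitted on all spots the log2 ratio of CALCA was -0.41 (limma adjusted p = 0.327), a smaller difference than that bound. The call was also lost without horse 1 (0.0701), horse 2 (0.0838) and horse 4 (0.0922), and with the channels as 8 samples with no replicate block (0.0614). Probes of CALCA and CALCB may share signal, since the genes are close relatives. P2RY2, a receptor for extracellular ATP, was at -0.13 ± 0.22 (limma adjusted p = 0.554), and it was well above background in 1 of 4 sarcoids.

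**Figure D4:**
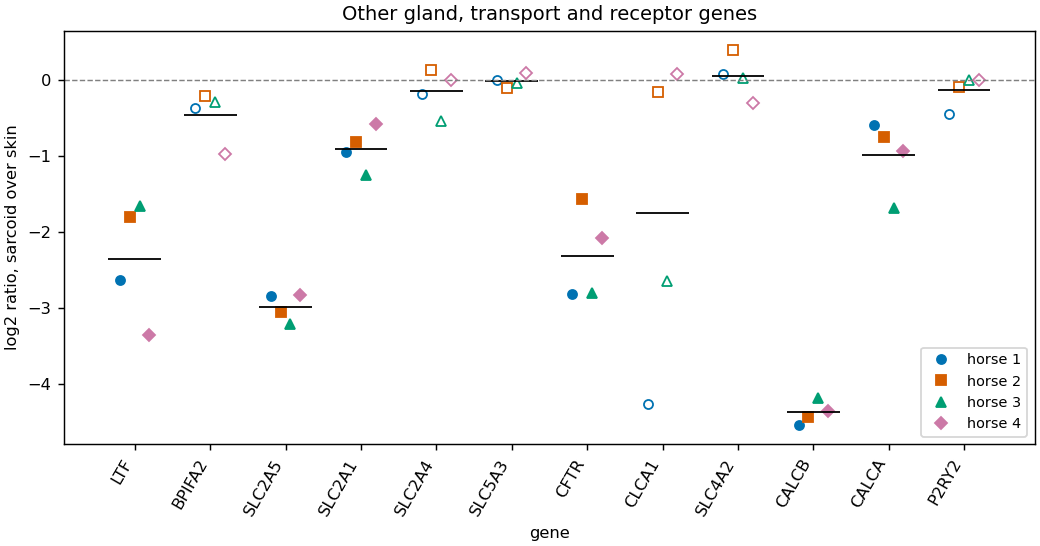
Log2 ratio of sarcoid over skin (vertical axis) of 12 other gland, transport and receptor genes (horizontal axis); points are horses, bars are means of 4 horses, filled symbols mark genes with a limma adjusted p under 0.05 and open symbols the rest. CALCB lies near -4.38 and SLC2A5 near -2.99 in every horse, CLCA1 ranges from -4.27 to 0.08, and SLC5A3 and SLC4A2 have means of -0.01 and 0.06.

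The make-up of the tissue pieces differed along with these genes. Of 5 measured keratinocyte markers 4 were lower and 1 did not pass, with KRT15, a keratin of basal keratinocytes, at -5.12 ± 0.11 while S100A7, an antimicrobial protein, was at -5.13 ± 0.36. The summed normalized level of the list was 44700 to 133000 units in skin and 2770 to 5590 in sarcoid, and each of the 5 was well above background in at least 1 sarcoid. The 1 measured sebaceous gland marker, HSD3B2, was lower, at -4.32 ± 0.37, with a level of 3370 to 11400 units in skin and 191 to 763 in sarcoid. With the background model fitted on all spots the HSD3B2 call was lost (-3.26, limma adjusted p = 0.0637), as was that of S100A7 (-4.26, 0.0517), while KRT15 was at -4.64 and passed (0.0178). None of 18 hair follicle markers could be measured by name (0 on the array). All 9 measured fibroblast markers were higher in the sarcoids, among them LUM (lumican) at 4.24 ± 1.16 and BGN (biglycan) at 3.06 ± 0.61, with a summed level of 913000 to 1280000 units in sarcoid against 154000 to 256000 in skin. The part of these shifts in the lower LATH, SLC5A1 and CA6 was not tested. Of the 36 listed sweat and apocrine gland genes only LATH, CA6, CA12 and LTF could be measured by name, so the share of gland cells could not be read from independent markers.

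Of 6 melanocyte markers 2 were lower, of 5 endothelial markers 1 was higher (VCAM1, an adhesion molecule), of 4 muscle markers 1 was lower and of 7 leukocyte markers 1 was higher. These counts stand beside 12.7% of all targets with a name called lower and 7.69% called higher. The summed level was 1880 to 4130 units in sarcoid and 4350 to 5410 in skin for the melanocyte list. For the endothelial list it was 5960 to 31400 and 3320 to 8150, for the muscle list 492 to 644 and 659 to 703, and for the leukocyte list 14200 to 40600 and 10600 to 24700. TYRP1, a melanin enzyme, and MB (myoglobin) were not well above background in any sarcoid; their log2 ratios were -2.70 (limma adjusted p = 0.00984) and -1.21 (limma adjusted p = 0.0196), which are differences from a signal not above background. With the background model fitted on all spots both calls were lost, at -1.52 (limma adjusted p = 0.317) and -0.56 (0.32), and MB was also lost without horse 1 (0.0855), horse 2 (0.0606) or horse 3 (0.0659). The VCAM1 call was lost with the background fitted on all spots too (2.37, limma adjusted p = 0.0706). ACTB and GAPDH did not pass, at -0.34 ± 0.45 and 0.27 ± 0.48, but with each array centred on its median, without loess, ACTB was at -1.01 (limma adjusted p = 0.0176) and GAPDH turned to -0.41 (limma adjusted p = 0.198).

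The genes most like each of the 4 were found by the root mean square difference of the 4 log2 ratios, among 790 other targets with a symbol. Nearest to LATH was IL1R2, a decoy receptor for interleukin 1, at a distance of 1.02, followed by KRT15 at 1.25 and S100A7 at 1.31. SLC5A1 was nearest to HSD3B2 (0.39), CALCB (0.40) and the protease inhibitor SPINK7 (0.48). CA6 was nearest to SPINK7 (0.28), the cytochrome P450 gene CYP3A89 (0.45) and the prion protein gene PRNP (0.49). Around CA12, with its ratios near 0, lay NR5A1 (0.06), IL23A (0.07) and IFNG (0.08). NR5A1 and IL23A were well above background on 4 arrays of each channel, IFNG on 2 in the sarcoid and 3 in the skin channel. CA12 was close to the limit of detection, so these small distances do not show that the transcripts behave alike.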

How the data were processed

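RNA of 4 sarcoids and of skin of the same 4 horses was hybridised to 4 two-colour Agilent horse arrays, sarcoid in Cy3 and skin in Cy5, per the labels. In 3 samples the description field speaks of embryonic stem cells; the groups were taken from the fields for tissue and animal instead. The submitters' processing notes name Agilent Feature Extraction 11.5.1.1. The deposited scanner files give linear intensity of each spot and of its local background. They also give processed intensity, background-subtracted and dye-normalized, and a log10 ratio of Cy5 over Cy3, per the file headers. That log10 ratio equals the processed signals within 0.001 for 90.8% to 93.5% of each array's spots. The authors' value table holds the same log10 ratio (largest difference 0), which settles its direction and scale; its column medians were -0.00621, -0.00796, -0.0191 and 0 in horses 1 to 4.

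Spots with the scanner's outlier marks (non-uniform feature, feature population, non-uniform background) were left out first, so the background model, otherwise fitted on all spots, did not see them. Normexp correction with an offset of 50 and loess within arrays followed, with weight 0 for control spots (limma 3.58.1, R 4.3.3). Signs were turned to log2 of sarcoid over skin. Spots of a probe were averaged. A probe counted as well above background on an array where at least 0.5 of its spots were, and was kept at 3 of 4 arrays in 1 channel. A gene stands by its probe of highest mean intensity. Levels are after between-array Aquantile normalization, and net signals are unnormalized. Between 67.2% and 80.7% of spots were well above background, and the number of arrays limits the precision.

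Targets were tested with lmFit and eBayes against 0, two-sided, with Benjamini-Hochberg adjustment, and each ratio holds its own pair of tissues. The test step alone was checked on simulated ratios drawn independently, which leaves the background and dye steps unchecked. Nothing says whether arrays hold more than 1 extract per horse, and the 4 arrays share 1 slide and 1 scan day. Of 3437 probes with a RefSeq accession 2332 matched the horse gene table; the array uses an older build, so no coordinates are given. The members and lists were chosen with earlier results of these data known. Named are the 4 genes; of each gland list up to 6 called members and 2 others; of each marker list up to 2 called and 1 other; ACTB and GAPDH (TBP and HPRT1 were not measured); and the 3 nearest genes, LOC identifiers left out. Some called marker genes are counted and not named, and a few listed genes that enter the counts are not reported here. Alternatives changed the background step, the scaling, the filter on dim probes, the handling of outlier spots, the probe of a gene, the model or the threshold, or left out a horse; the authors' value table was added after seeing the data.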

Additional observations from a re-analysis of the deposited data

Results flagged for a closer look

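Among 46 sets of 4 values examined (the named genes and every probe of LATH, SLC5A1, CA6 and CA12), 1 had a value far from the others, while chance marks about 1 in 20. BGN, one of the fibroblast markers, had a log2 ratio of 3.98 in horse 1, against 2.75, 2.85 and 2.67 in horses 2 to 4; the gap took up 0.869 of the whole range. None of the 4 gland genes was marked (0 of 15 probes).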

How the results depend on the processing

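LATH, SLC5A1 and CA6 kept a negative log2 ratio under every alternative run. With the background model fitted on all spots and outliers left out afterwards, and also with outlier spots kept, SLC5A1 was at -2.62 and CA6 at -2.16. In the same 2 settings 147 targets were lower (both) and 93 and 94 higher, and 1 of the other gland list genes was lower in either. With Agilent's processed signals LATH was at -6.01, through another probe, SLC5A1 at -5.02, CA6 at -4.43 and CA12 at 0.31; 1888 targets were higher. The authors' value table gave -5.02, -4.43 and 0.31 for the last 3 genes and 1877 targets higher. Median centring of the arrays in place of loess gave -6.99 for LATH, -4.30 for SLC5A1 and 614 targets higher. Calls on the higher side made up 37.1% in the processing used, 48.2% with Agilent's signals and 18.6% on median centring, where the median of all targets was -0.10. At an adjusted p under 0.01, 864 targets were lower and 253 higher. With each horse left out in turn LATH ranged from -6.43 to -6.23, SLC5A1 from -4.10 to -3.99, CA6 from -3.68 to -3.39 and CA12 from 0.01 to 0.15. Targets lower ranged from 1077 to 1415, targets higher from 390 to 820 and other gland list genes lower from 6 to 8. The pairing by horse is inside each ratio; with the channels as 8 samples and no replicate block the 4 ratios were as reported and 6 gland list genes were lower, with LTF and CALCA lost, and the spot correlation as a block gave 8, without LTF. CA12 gave no value with the filter at all 4 arrays. Of 18 named genes called outside the 4, 14 were lost with the background fitted on all spots and 14 passed with each horse left out. Signals near the negative controls limit CA12 in both tissues and SLC5A1 and CA6 in the sarcoids.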
